A study of Homo sapiens with 6 samples.

Results

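The 9 genes of the p27 and cyclin E-CDK2 module described here were followed at the RNA level in U87 cells, an established human glioblastoma line. The rule lists the 9 by name and sets no threshold on a measured value, although results of these data were known when it was written. They are the inhibitors CDKN1B (p27) and CDKN1C (p57), the p27 turnover genes SKP2 and CKS1B, and CKS2, the relative of CKS1B. The others are the cyclins CCNE1 and CCNE2, their kinase CDK2 and the phosphatase CDC25A. All 9 were found among the 60612 genes of the deposited table, and all 9 were among the 18106 genes that passed the filter on low counts. The NC cells carried a scramble shRNA and the shPRMT6 cells an shRNA against PRMT6, an arginine methyltransferase. Both shRNAs were delivered by lentivirus with polybrene, and each group had 3 libraries. The study designed several PRMT6 shRNAs, and which was sequenced, and whether all 3 shPRMT6 libraries carried the same one, is not given in the sources used here.

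The kinase CDK2 needs a cyclin partner to become active, and cyclin E drives it at the passage from G1 into S phase. p27 binds the cyclin E-CDK2 complex and holds it inactive. The complex can in turn phosphorylate p27, and the phosphorylated protein is bound by the F-box protein SKP2 together with its small cofactor CKS1 (from CKS1B), ubiquitinated by the SCF ligase and degraded. CDC25A removes inhibitory phosphates from CDK2. Much of this control acts on proteins, which RNA counts do not measure.

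Total counts ranged from 56388161 to 75887696 per library, and no library was a copy of another of its group by a chi-square comparison of counts. PRMT6 itself was at 9.34, 7.97 and 7.19 CPM (counts relative to the scaled library size) in NC and at 3.57, 4.58 and 5.24 CPM in shPRMT6. All 3 shPRMT6 libraries were below all 3 NC libraries, with a log2 fold change of -0.87 (SE 0.187, adjusted p = 0.0225). Each adjusted p of a gene comes from the quasi-likelihood test of edgeR, adjusted by Benjamini-Hochberg over the 18106 genes, and a gene was called at an adjusted p under 0.05. The PRMT6 call was lost when NC replicate 1 (adjusted p = 0.0614), shPRMT6 replicate 1 (adjusted p = 0.0588) or shPRMT6 replicate 2 (adjusted p = 0.0713) was left out. It was also lost with a replicate block (adjusted p = 0.0803) and with limma, another tool, with no filter (adjusted p = 0.0578). Of 8 glial and glioma markers, 3 (VIM, CD44 and NES) had a mean of at least 1 FPKM (fragments scaled to gene length and library size), OLIG2, GFAP and SOX2 were below that level, and S100B and AQP4 had no counts. The summed FPKM of these 8 ranged from 1232 to 1417 in NC and from 1218 to 1344 in shPRMT6. Of 6 markers of other cell types, CD68 alone reached 1 FPKM, with summed levels of the 6 from 58.8 to 100.2 FPKM in NC and from 57.1 to 124.5 FPKM in shPRMT6. No marker of either list was called in the main edgeR fit, and 1 (PECAM1, log2 fold change 0.70, adjusted p = 0.0544) had an unadjusted p under 0.05. PECAM1 was called by DESeq2 (adjusted p = 0.00369), with at least 10 counts in every library (adjusted p = 0.0468) and without shPRMT6 replicate 3 (adjusted p = 0.0434).

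Of the 9 genes, 5 fell after PRMT6 knockdown and none was called higher. CKS1B, CKS2, CCNE2, CDK2 and CDC25A were lower in shPRMT6, to between 51.9% and 67.4% of their NC means. CDKN1B, the p27 gene, was at 112% of its NC mean without passing the test, and CCNE1, SKP2 and CDKN1C did not pass it either. In RNA of a whole culture, fewer cells in a phase of the cycle and less RNA per cell cannot be told apart. Across all genes tested, 9.06% were called lower, 9.51% were called higher and 18.6% were called in either direction. The median log2 fold change was -0.57 over the 9 genes and -0.01 over all genes. At an unadjusted p under 0.05, edgeR had 5 of the 9 lower and 1 higher (CDKN1B). DESeq2 called CDKN1B higher also after adjustment. It made more false calls than edgeR in data simulated with edgeR dispersions, which cannot decide whether this call is false.

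**Figure D1:**
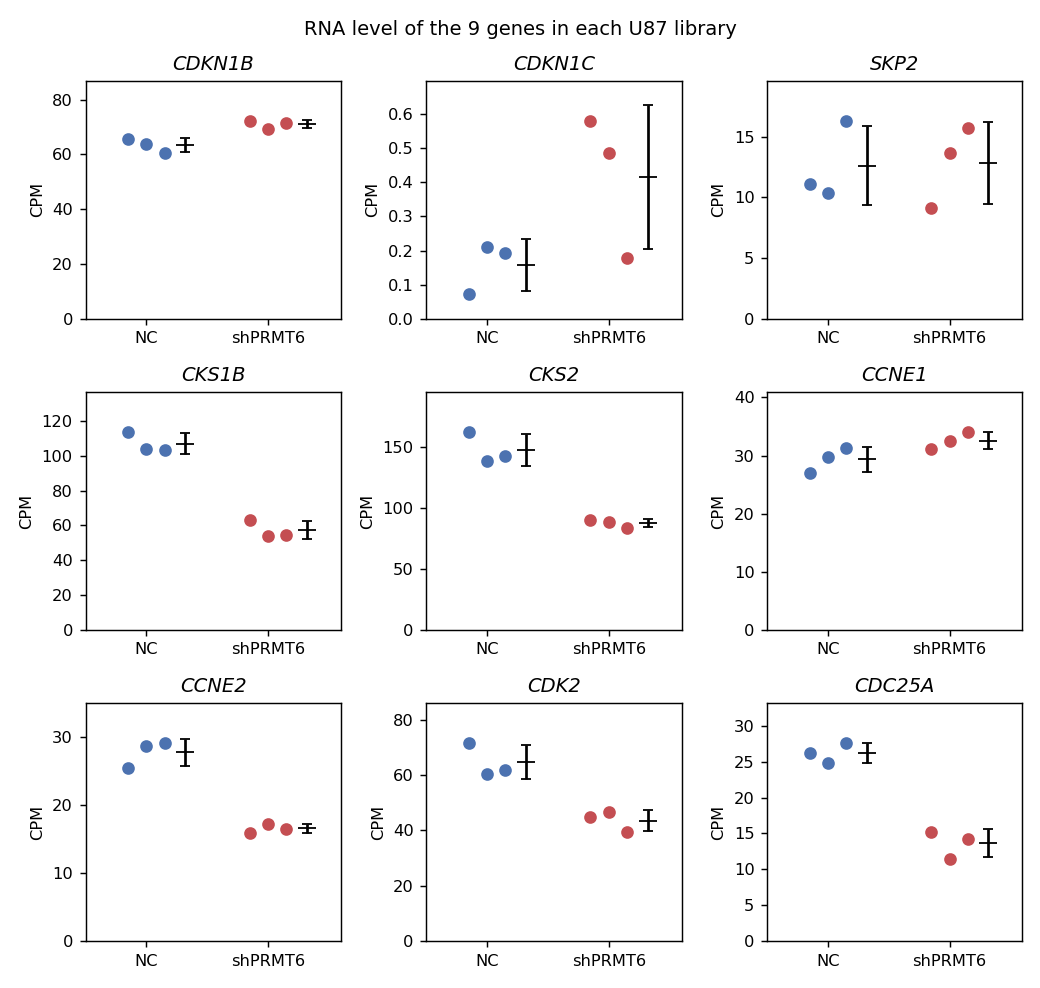
Each panel plots 1 gene's RNA level in CPM (vertical axis, from 0) in the 3 NC libraries (blue) and the 3 shPRMT6 libraries (red), with the mean and SD of each group in black. CKS1B, CKS2, CCNE2, CDK2 and CDC25A have all red points below all blue points, whereas CDKN1B has all red points slightly above the blue ones.

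The promoters of 3 of the genes that fell are shown first, as examples of sequence words by which cell cycle genes are often recognised. Promoter windows of RefSeq (GRCh38.p14, 250 bases before to 50 after the start) were matched for 6 of the 9 genes, namely CDKN1B, SKP2, CKS1B, CKS2, CCNE1 and CDC25A. Both strands were searched for CCAAT, for the cell cycle homology region (CHR, written TTTGAA or TTCGAA), for E2F words (TTTCCCGC, TTTGGCGC, TTTCGCGC or TTTGCCGC), for a FOXO word (TGTTTAC) and for the GC box (GGGCGG). The last 150 bases before the start are given 5′ to 3′ on the gene's strand, with CCAAT, CHR and E2F words in capitals (ATTGG and TTCAAA are CCAAT and CHR read on the other strand). They lie at chr1:154974531-154974680 (plus strand, CKS1B), chr9:89311045-89311194 (plus strand, CKS2) and chr3:48188418-48188567 (minus strand, CDC25A).
CKS1B: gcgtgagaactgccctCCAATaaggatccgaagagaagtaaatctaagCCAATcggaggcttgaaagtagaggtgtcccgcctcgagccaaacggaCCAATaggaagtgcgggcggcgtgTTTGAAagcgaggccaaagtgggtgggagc
CKS2: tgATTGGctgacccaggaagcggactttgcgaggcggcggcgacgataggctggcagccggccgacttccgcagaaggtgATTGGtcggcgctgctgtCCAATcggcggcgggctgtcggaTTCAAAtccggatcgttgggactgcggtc
CDC25A: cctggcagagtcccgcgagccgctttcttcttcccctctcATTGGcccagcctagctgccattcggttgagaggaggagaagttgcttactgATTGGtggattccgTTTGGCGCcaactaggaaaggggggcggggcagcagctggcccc

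CKS1B held a CHR from -30 to -25 relative to the start and CKS2 held one on the other strand from -29 to -24. No other matched gene of the 9 held a CHR, which occurred in 16.6% of all 27305 promoters and in 11.6% of the 11796 promoters of tested genes. CCAAT stood in CKS1B, CKS2, CDC25A and CDKN1B, in 35.7% of all promoters and in 36.7% of those of tested genes. A pair of CCAAT words with a CHR in the last 60 bases, a combination chosen after the matches were seen, was in CKS1B and CKS2 and in 0.319% of all promoters (0.331% of those of tested genes). The E2F word of CDC25A (TTTGGCGC, from -44 to -37) was the only one among the 6 genes, against 3.33% of all promoters and 5.23% of those of tested genes. The FOXO word was in none of the 6 (3.41% of all promoters, 2.42% of those of tested genes), and the GC box was in 5 of them (44.6% of all promoters, 67.6% of those of tested genes), CKS2 being the gene without it. CDKN1B, which was not called lower, thus held CCAAT too, and CCNE2 and CDK2, which fell, had no matched window. A link between the words and the falls was not tested. These are matches of letters in a window and not measured binding sites.

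Among the inhibitors, CDKN1B (ENSG00000111276, chr12:12715058-12722371, plus strand, GRCh38) encodes p27. CDKN1B RNA was at 65.5, 63.9 and 60.7 CPM in NC and at 72.4, 69.4 and 71.4 CPM in shPRMT6. The 3 shPRMT6 libraries were all above the 3 NC libraries, by a small margin. The log2 fold change was 0.16 (SE 0.061, 95% interval 0.02 to 0.31, adjusted p = 0.116). An arrangement with all shPRMT6 libraries above all NC libraries was found for 20.3% of all genes tested. DESeq2 gave 0.17 with an adjusted p of 0.0163 and is the alternative under which CDKN1B was called. DESeq2 made more false calls than edgeR in simulated data. Those data used dispersions estimated by edgeR, so they cannot decide whether this call is false. With limma on FPKM the adjusted p was from 0.0508 to 0.0648. The adjusted p ranged from 0.0163 to 0.284 over 15 alternatives.

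CDKN1C (ENSG00000129757, chr11:2883213-2885773, minus strand), which encodes the p27 relative p57, was close to absent. It had 4, 16 and 12 counts in NC and 37, 30 and 12 counts in shPRMT6. One shPRMT6 library was within the NC range, so the groups overlapped. The log2 fold change of 1.37 had an SE of 0.662 and a 95% interval from -0.22 to 2.95 (adjusted p = 0.208). At this depth neither a rise nor an absence of change could be shown. By the fold change and p threshold of the study's methods, read here as an absolute log2 fold change above 1 with an unadjusted p under 0.05, none of the 9 genes passed in edgeR, beside 5.92% of all genes. CDKN1C passed that threshold in DESeq2 (log2 fold change 1.38, unadjusted p = 0.0445 from the DESeq2 model over all genes, not an exact test).

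SKP2 (ENSG00000145604, chr5:36151989-36184319, plus strand) is the F-box subunit that recognises phosphorylated p27. SKP2 RNA was at 11.1, 10.4 and 16.3 CPM in NC and at 9.14, 13.7 and 15.7 CPM in shPRMT6. Both groups spread over nearly the same range. The log2 fold change was 0.03 (SE 0.255, 95% interval -0.58 to 0.64, adjusted p = 0.950). Leaving out single libraries moved it between -0.14 and 0.26. SKP2 had the widest spread within groups of the 8 better measured genes, with a coefficient of variation of 25.9% in NC and 26.3% in shPRMT6, against 2.15% to 14.4% for the other 7. A fall of SKP2 RNA as large as that of CDK2 (-0.57) lay just inside this interval.

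CKS1B (ENSG00000173207, chr1:154974653-154979249, plus strand) encodes CKS1, the cofactor that SKP2 needs to bind p27. CKS1B RNA was at 114, 104 and 103 CPM in NC and at 63.2, 53.8 and 54.6 CPM in shPRMT6. The groups were far apart compared with their SDs of 5.94 CPM and 5.21 CPM. The log2 fold change was -0.90 (SE 0.0862, 95% interval -1.11 to -0.70, adjusted p = 0.00164).

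Of the 75-base stretches of CKS1B transcripts, 6.46% also occur in processed copies of the gene, so reads could be split between them. The copy CKS1BP3 was also called lower, from 5.10, 4.06 and 4.10 CPM to 2.22, 2.76 and 2.75 CPM (log2 fold change -0.78, adjusted p = 0.0273). Of the other copies, CKS1BP1, CKS1BP2 and CKS1BP7 were tested and not called, and CKS1BP6 had 0 to 6 counts. No tested copy exceeded 2.76 CPM in an shPRMT6 library, where CKS1B was at 53.8 CPM or more.

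CKS2 (ENSG00000123975, chr9:89311198-89316703, plus strand) encodes the other human CKS protein, which also binds CDKs. CKS2 RNA was at 162, 138 and 142 CPM in NC and at 90.1, 88.8 and 83.5 CPM in shPRMT6. Again the groups did not overlap, and the log2 fold change was -0.76 (SE 0.0797, 95% interval -0.95 to -0.56, adjusted p = 0.00213). The log2 ratio of CKS1B to CKS2 was -0.46 ± 0.0507 in NC and -0.62 ± 0.106 in shPRMT6 (SD, n = 3), with overlapping values (exact permutation p = 0.2, two-sided, and adjusted p = 0.3 over 6 ratios). The difference of -0.15 was larger than either SD, and became -0.0990 without shPRMT6 replicate 2. Their summed level went from 240.1 ± 18.0 FPKM to 140.8 ± 5.89 FPKM (SD, n = 3).

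Of the 2 cyclin E genes, CCNE2 was called lower and CCNE1 was not called. CCNE1 (ENSG00000105173, chr19:29811898-29824308, plus strand) was at 27.04, 29.8 and 31.3 CPM in NC and at 31.1, 32.5 and 34.1 CPM in shPRMT6. The groups overlapped and the log2 fold change was 0.15 (SE 0.0875, 95% interval -0.06 to 0.36, adjusted p = 0.296). CCNE2 (ENSG00000175305, chr8:94879770-94896678, minus strand) was at 25.5, 28.8 and 29.2 CPM in NC and at 15.9, 17.3 and 16.6 CPM in shPRMT6. No shPRMT6 library reached the NC range, and the log2 fold change was -0.75 (SE 0.0911, 95% interval -0.97 to -0.53, adjusted p = 0.00338).

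The difference between the cyclins was compared within libraries, where it does not depend on scaling. The log2 ratio of CCNE1 to CCNE2 counts was 0.08, 0.05 and 0.10 in NC and 0.96, 0.91 and 1.04 in shPRMT6. It was near 0 in every NC library and near 1 in every shPRMT6 library. The difference of 0.90 had an exact permutation p of 0.1 (two-sided), below which groups of 3 cannot go, and an adjusted p of 0.2 over 6 ratios. By length, CCNE2 made up 34.6%, 35.1% and 34.3% of the cyclin E FPKM in NC and 22.3%, 22.9% and 21.3% in shPRMT6. The summed cyclin E level was 15.4 ± 1.27 FPKM in NC and 14.4 ± 0.600 FPKM in shPRMT6 (SD, n = 3), with overlapping values. This overlap holds for FPKM, which weights each gene by its length, and summed CPM was not compared.

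**Figure D2:**
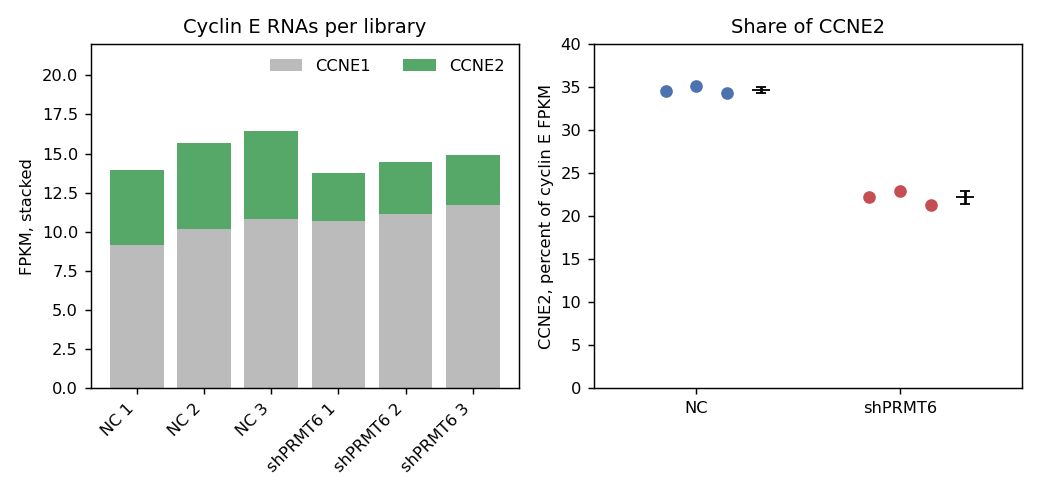
The left panel stacks the FPKM of CCNE1 (grey) and CCNE2 (green) in each of the 6 libraries, and the right panel plots the percentage that CCNE2 contributed (points are libraries, black marks are mean and SD). The heights of the FPKM stacks overlap between the groups, while the CCNE2 share is near 34.6% in NC and near 22.2% in shPRMT6.

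CCNE2 shares 37.1% of its exonic bases with exons of INTS8 on the opposite strand. The library kit named in the labels does not mark strand, and whether counting used strand is not given in the sources used here. INTS8, an Integrator subunit, was at 52.4, 55.9 and 49.4 CPM in NC and at 62.3, 56.1 and 52.8 CPM in shPRMT6, and was not called (log2 fold change 0.12, adjusted p = 0.404). The count of CCNE2 fell while that of INTS8 did not, and how reads in the shared exons were assigned is uncertain.

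CDK2 (ENSG00000123374, chr12:55966769-55972784, plus strand) encodes the kinase that cyclin E activates and p27 inhibits. CDK2 RNA was at 71.6, 60.3 and 61.6 CPM in NC and at 44.6, 46.5 and 39.4 CPM in shPRMT6. The groups did not overlap, and the log2 fold change was -0.57 (SE 0.1005, 95% interval -0.81 to -0.33, adjusted p = 0.0115). It was the smallest of the 5 falls. CDK2 shares 16.8% of its exonic bases with PMEL and AC025162.1 on the opposite strand, of which PMEL had 20 to 53 counts per library and AC025162.1 none.

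CDC25A (ENSG00000164045, chr3:48157146-48188402, minus strand) encodes the phosphatase that activates CDK2. CDC25A RNA was at 26.2, 24.8 and 27.6 CPM in NC and at 15.2, 11.4 and 14.2 CPM in shPRMT6. All shPRMT6 libraries were well below NC, and the log2 fold change of -0.95 was the lowest of the 9 genes (SE 0.127, 95% interval -1.25 to -0.64, adjusted p = 0.00468). Relative to its substrate CDK2, CDC25A was lower by 0.39 on the log2 scale without overlap of the groups (exact permutation p = 0.1, two-sided, and adjusted p = 0.2 over 6 ratios). The groups were separated narrowly, at -1.45 in the lowest NC library and -1.48 in the highest shPRMT6 library, and the difference became -0.22 without shPRMT6 replicate 2. For comparison, CDC20, the mitotic activator of the anaphase-promoting complex, was at 148 to 180 CPM in NC and at 65.8 to 70.3 CPM in shPRMT6 (log2 fold change -1.30, adjusted p = 0.000580). The study reports that CDC20 binds p27 and promotes its ubiquitination, which concerns protein and is not measured by RNA counts.

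**Figure D3:**
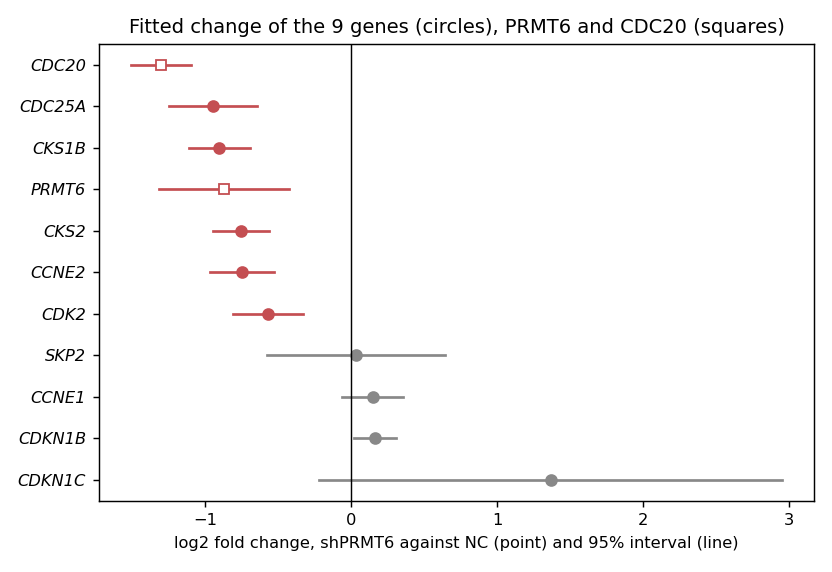
Points give the log2 fold change of shPRMT6 against NC from edgeR and lines its 95% interval, for the 9 genes (circles) and for PRMT6 and CDC20 (open squares), with called genes in red. The 5 red circles lie between -0.95 and -0.57, and the intervals of SKP2, CCNE1 and CDKN1C cross 0 while that of CDKN1B starts at 0.02.

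The balance between the kinase and its inhibitor was compared within libraries. The log2 ratio of CDK2 to CDKN1B counts was 0.13, -0.08 and 0.02 in NC and -0.70, -0.58 and -0.86 in shPRMT6. The groups did not overlap, and the difference of -0.73 had an exact permutation p of 0.1, again the lowest possible (adjusted p = 0.2 over 6 ratios). For SKP2 and CCNE1 against CDKN1B the groups overlapped. The SDs of the SKP2 to CDKN1B log2 ratio were 0.41 in NC and 0.43 in shPRMT6 (n = 3). They are too wide to exclude a difference as large as that of CDK2. The SKP2 to CDKN1B ratio differed by -0.14 (p = 0.7, exact permutation test) and the CCNE1 to CDKN1B ratio by -0.01 (p = 1, exact permutation test). These are ratios of RNA and not of protein.

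Levels between genes were compared per length, as FPKM. In NC the order of the means was CKS2 (202 FPKM), CKS1B (38.4 FPKM), CDKN1B (20.8 FPKM), CDK2 (13.9 FPKM), CCNE1 (10.0 FPKM), CCNE2 (5.32 FPKM), CDC25A (5.32 FPKM), SKP2 (2.76 FPKM) and CDKN1C (0.0499 FPKM). Only CCNE2 and CDC25A, among neighbours in this order, had overlapping ranges. In shPRMT6, CDKN1B (23.4 FPKM) stood above CKS1B (20.7 FPKM) and CCNE1 (11.2 FPKM) above CDK2 (9.45 FPKM), each without overlap. CCNE2 (3.18 FPKM), SKP2 (2.83 FPKM) and CDC25A (2.77 FPKM) overlapped one another but not CDK2 above them or CDKN1C (0.134 FPKM) below. SKP2, the recognition subunit, was thus at a lower RNA level per length than its cofactor CKS1B in both groups. CKS2 has 613 annotated exonic bases, the fewest of the 9, and a value per length of so short a gene depends on the length used.

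**Figure D4:**
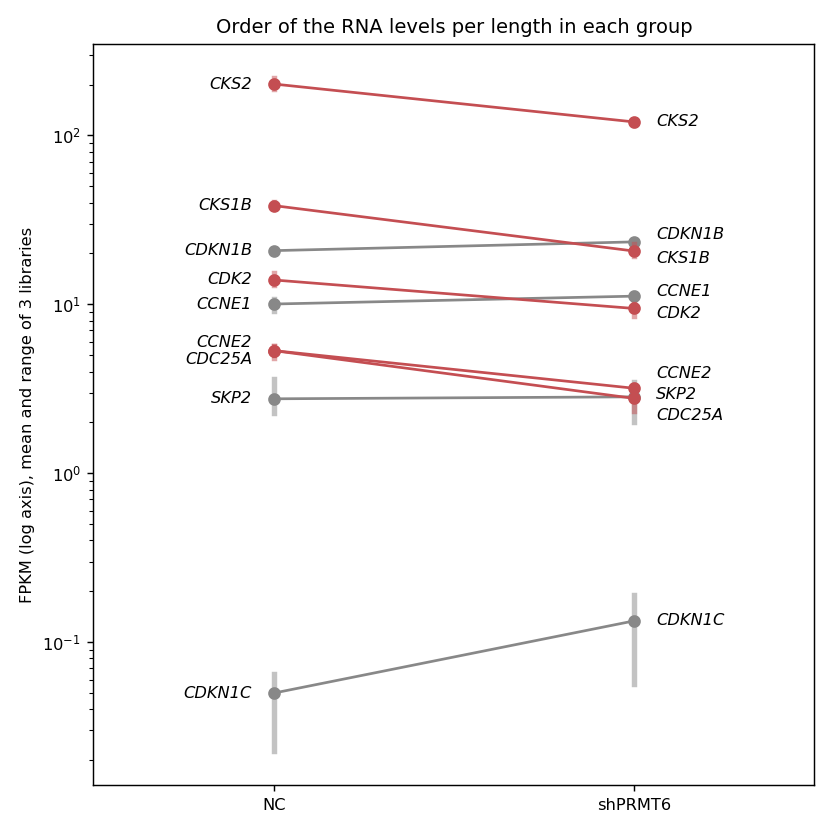
The vertical axis gives FPKM on a log scale for NC (left) and shPRMT6 (right), with points at the means, thick bars for the range of 3 libraries, and genes called lower in red. The lines of CDKN1B and CKS1B cross, as do those of CCNE1 and CDK2, and CDKN1C lies far below the other 8.

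Beyond SKP2 and CKS1B, genes of the machinery that ubiquitinates p27 and cyclin E were counted separately. The list includes FZR1, which acts on SKP2, and leaves out CDC20, whose values are given above. Of its 13 genes, 3 were called lower and none higher, and the median log2 fold change was -0.04. Among all genes tested, 9.06% were called lower and 9.51% higher, shares that also stand beside the counts of the lists below. For 5 of the 13 all shPRMT6 libraries were above all NC libraries, beside 20.3% of all genes. For 4 they were all below, beside 19.9%. UBE2M, the conjugating enzyme for NEDD8, fell by 0.44 on the log2 scale (adjusted p = 0.0200), a call lost without NC replicate 3 (adjusted p = 0.0673) or without shPRMT6 replicates 1, 2 or 3 (adjusted p from 0.0576 to 0.0767). FZR1, the CDH1 activator of the complex that degrades SKP2 itself, fell by 0.54 (adjusted p = 0.00827). UBAC1, a subunit of the cytoplasmic p27 ligase KPC, fell by 0.69 (adjusted p = 0.00379), while its catalytic partner RNF123 was at -0.25 (adjusted p = 0.118). The scaffold CUL1 (0.04, adjusted p = 0.626), the adaptor SKP1 (0.07, adjusted p = 0.796) and FBXW7 (-0.04, adjusted p = 0.819), the F-box protein of cyclin E, were not called, and the highest value was that of CAND1 (0.21, adjusted p = 0.123), which exchanges F-box subunits and was called higher by DESeq2 (adjusted p = 0.0284) and without NC replicate 2 (adjusted p = 0.0450).

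Of 5 other CDK inhibitors, CDKN1A (p21), the closest in function to p27, was called lower. CDKN1A RNA was at 445, 369 and 449 CPM in NC and at 270, 258 and 253 CPM in shPRMT6 (log2 fold change -0.69, adjusted p = 0.00364), and its difference from CDKN1B was not tested. CDKN2A, CDKN2B and CDKN2C were not tested, with 0 to 8 counts per library. CDKN2D varied from 3.72 to 34.6 CPM within NC and from 1.69 to 25.2 CPM within shPRMT6, and was not called (log2 fold change -0.43, adjusted p = 0.821). For 20 to 35 of 9527 genes with a mean of at least 10 CPM, a given library stood 4-fold or more from both others of its group, as CDKN2D did. None of the 8 genes of the module that reach this level did so.

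Of 10 other regulators of CDK2 and related CDKs, 9 were tested, 5 were called lower and none higher, with a median of -0.75. CCNA2, the S phase cyclin partner of CDK2, fell by 0.85 (adjusted p = 0.000581), and CDKN3, a phosphatase acting on CDKs, fell by 0.95 (adjusted p = 0.00102). The inhibitory kinases WEE1 (-0.75, adjusted p = 0.0115) and PKMYT1 (-1.22, adjusted p = 0.00443) fell as well, next to the activating phosphatase CDC25C (-0.83, adjusted p = 0.00605). Genes of opposite effect on CDK activity were therefore lower together. The CDK-activating kinase subunits CDK7, CCNH and MNAT1 were not called, MNAT1 being the highest at 0.25 (adjusted p = 0.303, and 0.0454 without NC replicate 1), nor was CDC25B. CCNA1 had no counts.

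Of 12 transcription factors and cofactors (RB1, RBL1 and RBL2) that act on these genes, 4 were called lower and none higher, with a median of -0.19. E2F1 (-0.62, adjusted p = 0.00199), E2F2 (-1.16, adjusted p = 0.00114) and E2F3 (-0.49, adjusted p = 0.00968), the activating E2F genes, fell. FOXM1, a factor of G2/M genes, fell by 0.83 (adjusted p = 0.0128), a call lost without shPRMT6 replicate 1 (adjusted p = 0.0534). FOXO1 was the highest at 0.08 (adjusted p = 0.894), and neither it nor FOXO3 and FOXO4, which can activate CDKN1B, was called. MYC ranged from 14.8 to 109 CPM within NC and from 8.84 to 81.4 CPM within shPRMT6. It was not called (log2 fold change -0.44, 95% interval -2.68 to 1.80, adjusted p = 0.791), and so wide an interval shows neither a change nor its absence.

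Of 5 substrates of cyclin-CDK2, MYBL2 was called lower (-0.64, adjusted p = 0.00114) and NPAT, the histone gene coactivator, was at -0.02 (adjusted p = 0.923), the highest of the 5. The median of the 5 was -0.24. Of 11 kinases that phosphorylate p27, 2 were called lower and 1 higher, with a median of -0.20. RPS6KA1 fell by 0.95 (adjusted p = 0.00779) and PIM1 fell by 1.096 (adjusted p = 0.00216), whereas SRC rose by 0.33 (adjusted p = 0.0151). The SRC call was lost without shPRMT6 replicate 1, 2 or 3 (adjusted p from 0.0544 to 0.0638) and with a replicate block (adjusted p = 0.0508). UHMK1 had the lowest value of the list, -1.58, but its NC libraries ranged from 41.2 to 156 CPM and it was not called (adjusted p = 0.0513). UHMK1 was called by DESeq2 (adjusted p = 0.00690), with at least 10 counts in every library (adjusted p = 0.0439) and without NC replicate 2 (adjusted p = 0.00580). YES1 had the highest value, 0.52 (adjusted p = 0.264), which became 0.23, below that of SRC (0.29), without NC replicate 2.

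Of 7 genes that act on CDKN1B mRNA, ELAVL1, the RNA-binding protein HuR, was called lower (-0.27, adjusted p = 0.0445), and it lost its call under 8 of 15 alternatives, among them each left-out library but NC replicate 2 (adjusted p from 0.106 to 0.142). The highest was HNRNPC (0.11, adjusted p = 0.235). MIR222HG, the host transcript of the miRNAs miR-221 and miR-222 that repress CDKN1B, was at -0.26 (adjusted p = 0.116), with all shPRMT6 libraries below all NC libraries. Such an arrangement was found for 19.9% of all genes tested. The median of the 7 was -0.23.

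The 5 falls were read beside genes of cell proliferation. Of 8 proliferation markers, 7 were called lower (PCNA, MCM2, TOP2A, CCNB1, PLK1, BUB1 and TYMS), between -0.89 and -0.73, and the median was -0.84. MKI67 had the lowest value (-1.06) and was not called (adjusted p = 0.0856), and its NC libraries ranged from 211 to 517 CPM. MKI67 was called without NC replicate 1 (adjusted p = 0.0487) and with a replicate block (adjusted p = 0.0458). Without NC replicate 2 it was at -0.63 (adjusted p = 0.163), which was then not the lowest value. The call of CCNB1 was lost without NC replicate 1 or 3 or shPRMT6 replicate 2 or 3 (adjusted p from 0.0593 to 0.0715). The part of this fall in those of the 5 genes was not tested.

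The genes whose pattern over the 6 libraries was most like that of CDKN1B, by Pearson's r of log2 CPM among 10050 genes, were AIM2 (0.997), SNHG18 (0.997), PTX3 (0.996), MICB (0.994) and EOLA2 (0.991). Their log2 fold changes were between 0.15 and 0.55. For SKP2 they were APH1B (0.976), FAM86DP (0.974), USP10 (0.970), ZNG1B (0.968) and NSUN5P1 (0.960), none of which was called. CDKN1B and SKP2 were not alike (r = -0.26). These r rest on 6 libraries in 2 groups and are given as a description.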

How the data were processed

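The authors deposited unnormalized gene counts of each library, and per the labels HISAT2, HTSeq 0.13.5 and GRCh38 were named in the processing notes. The authors also deposited FPKM values, where 1e-04 stands for no counts. No column was left without a sample. The replicates are called independent in the study's methods. The 9 genes and all lists were chosen with earlier results of these data known.

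Counts were filtered with filterByExpr, scaled by TMM and tested with edgeR 4.0.16 in R 4.3.3. No block was used, since the study's methods name none. Same-numbered libraries of the groups did not deviate together. Named genes were the 9, PRMT6, CDC20, each list's called, lowest and highest genes, and the 5 most alike genes at a mean log2 CPM of 3 or more. Genes named for other reasons were chosen after their values were seen. Alternatives used DESeq2 1.42.0, limma 3.58.1 on log2(FPKM + 1 or 0.1), other scalings, filters and thresholds, and libraries left out. Positions and overlaps came from GENCODE 29, promoters from RefSeq (GRCh38.p14). Gene identifiers were matched to symbols for 60401 of 60612 genes. Ratios were tested with SciPy 1.17.1. Programs were tested on counts simulated with dispersions estimated by edgeR, with pass criteria relaxed after a first run. False calls there exceeded the nominal rate in all fits, most of all with DESeq2, and the replicate block recovered fewer changed genes than the fit without it.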

Additional observations from a re-analysis of the deposited data

How the results depend on the processing

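The 5 called genes of the module stayed lower and called in all 15 alternatives of tool, scaling, filter, unit, block and left-out library, with CDK2 closest to the threshold (highest adjusted p = 0.0428). Calls among the 9 ranged from 4 (adjusted p under 0.01, which removed CDK2) to 6 (DESeq2, which added CDKN1B at a log2 fold change of 0.17). Over all genes, 3362 calls became 5782 with DESeq2, 1320 at an adjusted p under 0.01, 1858 with a replicate block, and 1755 to 3183 with 1 library left out. They were 1939 without NC replicate 3, and 1871, 1755 and 1858 without shPRMT6 replicates 1, 2 and 3. At the threshold of the methods, 1072 calls became 324 with limma on log2(FPKM + 0.1), 136 on log2(FPKM + 1) and 134 on log2(FPKM + 1) with no filter, and the cause was not tested. Replicate numbers did not pair the libraries (correlations of deviations -0.0248, -0.0171 and -0.0301), and the block changed no call among the 9. It ended the calls of PRMT6 (adjusted p = 0.0803), ELAVL1 (adjusted p = 0.102) and SRC (adjusted p = 0.0508), and added MKI67 (adjusted p = 0.0458).

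Estimates that changed sign with 1 library left out were those of SKP2 (-0.14 to 0.26, negative without NC replicate 1 or 2 or shPRMT6 replicate 2 or 3), CDKN2D (-0.94 to 0.10), FOXO1 (-0.21 to 0.24), NPAT (-0.0758 to 0.0195) and the log2 ratios to CDKN1B of SKP2 (-0.30 to 0.10) and CCNE1 (-0.0978 to 0.0637). None of these was called. With 3 libraries a group, the exact test of ratios cannot go below p = 0.1, and CDKN1C, with 4 to 37 counts, is limited by depth.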
